A study of Saccharomyces cerevisiae with 25 samples.

Results

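The mitochondrial ribosomal protein genes described here are the 54 of 6650 named genes whose symbols consist of MRPL, MRPS or RSM followed by a number. They comprise 34 MRPL genes, of the large subunit of the mitochondrial ribosome, and 20 genes counted by name as small-subunit genes. Of these 20, 9 have MRPS and 11 have RSM names. They were chosen by name and not by any measured value, though with earlier results of these data known. Genes of the same ribosome with other names (MRP and YML symbols, for example) are not members and are given below as a list of their own.

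RNA came from budding yeast (Saccharomyces cerevisiae) in the BY4741 background, labelled pho84pr-YFP and delta-vip1. The libraries are read here as samples of a single culture, though the sample titles do not give the number of cultures. The label states that VIP1, an inositol pyrophosphate kinase gene, was deleted, and that YFP stood under the PHO84 promoter, which responds to phosphate. In 24 libraries the cells had been in medium without phosphate for 15 to 360 min, sampled every 15 min, and 1 library, at 0 min, came from cells still in high-phosphate medium. All libraries carry the same genotype, and times were sampled once each, without replicates. The times without phosphate were grouped into an early (15 to 120 min), a middle (135 to 240 min) and a late window (255 to 360 min) of 8 libraries each. Successive samples of 1 culture would not be independent cultures. With 1 library per time, p-values measure the spread of these libraries around a smooth curve.

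The mitochondrial ribosome makes the few proteins encoded by mitochondrial DNA, which are mainly core subunits of the respiratory chain and of the ATP synthase. Its own proteins are almost all encoded in the nucleus, translated in the cytosol and imported, so their mRNAs are made and degraded apart from the ribosomal RNAs they join. In budding yeast many of these mRNAs are known targets of Puf3, an RNA-binding protein of the Pumilio family that recognises a short element after the stop codon and is known to affect the decay of its targets and their location near mitochondria.

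That element is what the members shared beyond their names. The motif TGTANATA, searched on the gene strand in the 200 bases after the stop codon of the R64 RefSeq genome, was present in 53 of the 54 genes (98.1%), against 842 of all 5931 protein-coding genes with such a window (14.2%). It was found in 34 of 34 large-subunit genes and in 19 of 20 small-subunit genes. The gene without it was RSM22, whose annotated product is a tRNA methyltransferase and not a ribosomal protein. The sites below belong to genes described in what follows, and show the motif, in capitals, in genes with different time courses, with 6 bases on each side in lower case.
RSM10: cgtactTGTAAATAaaatag
MRPL28: tcctgcTGTAAATAactgat
RSM26: atatacTGTAAATAgtttta
MRPL4: ctctccTGTAAATAtatata
RSM7: cttgccTGTACATAaacaca
MRPS16: atatgtTGTATATAtgtttt
RSM10 rose most, its motif lying at chrIV:540473-540480 on the plus strand, 59 bases after the stop. MRPL28, the other member that rose late against high phosphate, has its first motif at chrIV:1386548-1386555 on the plus strand. RSM26, which had the lowest change late against early and late against high phosphate, has it at chrX:619122-619129 on the plus strand. MRPL4 had the lowest and MRPS16 the highest level per length, and RSM7 and MRPS16 show the fifth base as C and T.

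The first motif began 8 to 139 bases after the stop codon, with a median of 54. One motif was found in 41 genes, 2 in 11 genes and 3 in RSM19 alone. A C stood 2 bases before the motif in 37 of 53 members (69.8%), against 206 of the 789 other genes with the motif (26.1%). An A was the fifth base in 25 of 53 members (47.2%), against 216 of 789 other genes (27.4%). On the opposite strand of the same windows TGTANATA occurred in 10 of 54 members (18.5%) and in 13.1% of all genes, and on the gene strand of the promoters in 5.56% and 7.05%. A match describes letters, and binding was not measured here.

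**Figure D1:**
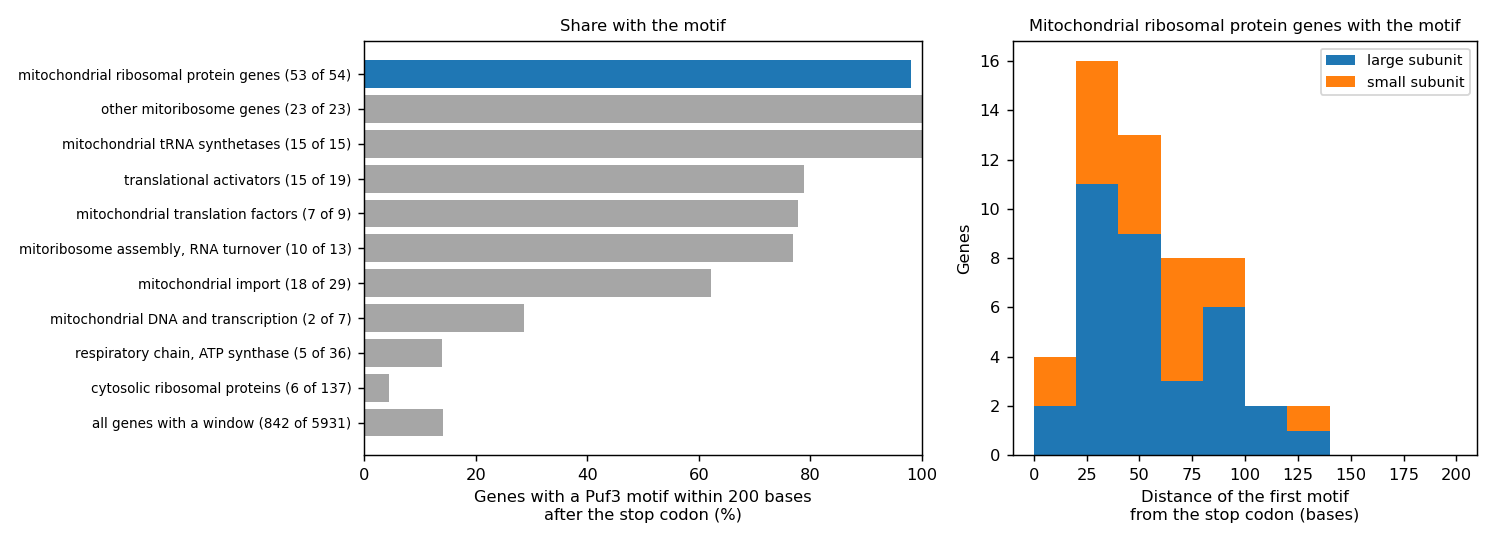
Left, share of genes (%) in each list with TGTANATA within 200 bases after the stop codon, with counts in brackets; right, distance in bases of the first motif from the stop codon in the members that have it, stacked by subunit in bins of 20 bases. Mitochondrial ribosomal protein genes (53 of 54) stand with the other mitoribosome genes and the mitochondrial tRNA synthetases, while the respiratory chain (5 of 36) is close to all genes (842 of 5931).

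Promoters, taken as 250 bases before to 50 bases from the start codon and searched on both strands, showed no such contrast. GATGAG, the letters of the PAC element of ribosome biogenesis genes, was found in 10 of 54 members (18.5%) and in 1184 of 5931 genes in all. AAAATTTT, found in the RRPE element of the same genes, was in 5.56% and 9.1%. AGGGG, the stress response element, was in 14.8% and 21.9%, and CCAAT, bound by the HAP complex that activates respiratory genes, in 40.7% and 43.6%. CACGTG, the E-box that Pho4 and Cbf1 recognise, was in 3.7% of members and 2.93% of all genes.

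The libraries held 413033 reads (345 min) to 4162690 reads (165 min), and the median library 1417344, depths inferred from the steps between low values, and a gene was listed where it had at least 10 reads. All 54 members were tested, and 52 were listed in every library, with 1 blank in RSM23 and 5 in MRPL4. The median member had 98.0 reads in its median library (range 23 to 452), where counting alone gives an SD of 0.15 on the log2 scale. The scatter of the members around their fitted curves had a median SD of 0.20, against 0.24 over all genes. RPM means a gene's reads per 1000000 in its library. VIP1 had 9.69 to 55.7 RPM in 25 of 25 libraries. Whether these reads come from a remaining part of the gene or from elsewhere was not tested, and the genotype is given here only as labelled. HIS3, LEU2 and MET17, absent from BY4741, were listed in 0 libraries, and URA3, also deleted in BY4741, in 8, at 4.13 to 10.3 RPM. The mating-type a genes STE2, MFA1, MFA2 and BAR1 were listed in all 25 libraries, STE2 at 400.6 to 561.5 RPM, and STE3, of the other mating type, was at 18.7 to 54.6 RPM.

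Per length, the median member had 112.7 RPM per kb of gene late and 85.1 RPM per kb at 0 min, while over all tested genes the median was 54.2 RPM per kb late and 40.6 RPM per kb at 0 min. At 0 min the range between members was wide, from 12.2 RPM per kb for MRPL4 to 617.4 RPM per kb for MRPS16. MRPL37 (488.9 RPM per kb) and RSM27 (411.9 RPM per kb) were next to MRPS16 at the upper end, and RSM22 (18.9 RPM per kb) and MRPL1 (20.1 RPM per kb) next to MRPL4 at the lower end. As a rule each ribosomal protein is present once in a ribosome, which does not cover RSM22, annotated as a tRNA methyltransferase. MRPS16 is 1 of 2 members, with RSM25, whose reads are mostly not whole numbers and may be shared with similar genes, so its level is less certain. Late, the order of the genes was much the same, with a Pearson correlation of log2 levels of 0.97 and a Spearman correlation of 0.96 between late and 0 min, across genes that share the 2 sets of libraries. Per length, the median late and at 0 min was 362.6 and 2752 RPM per kb for 137 cytosolic ribosomal protein genes, and 662 and 350.5 RPM per kb for 36 nuclear-encoded genes for respiratory chain and ATP synthase subunits.

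The mitochondrial and the cytosolic ribosomal protein genes took different courses. The 137 cytosolic genes took 33.8% of all reads at 0 min and stood at a median log2 change of -0.44 by 180 min, of -2.66 by 240 min and of -3.05 by 360 min. The median member, relative to 0 min, stood at -0.01 after 30 min, 0.24 after 60 min, 0.22 after 180 min, 0.50 after 240 min and 0.37 after 360 min. The members' share of all reads was 0.374% to begin with, 0.373% by 30 min and 0.555% by 240 min. In the late window it was 0.488% to 0.540%, while the cytosolic genes held 4.55% to 5.39%. RPM is a share of a library, and in bulk RNA the amount of RNA per cell is not seen: the median of all genes tested itself stood at -0.07 by 60 min, 0.39 by 240 min and 0.37 by 360 min. Set against that median, the members' median was 0.30 higher at 60 min, 0.12 higher at 240 min and -0.03 to 0.06 higher in the late window. The members' median change from 0 min thus stood above that of all genes in the first hours and level with it at the end.

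**Figure D2:**
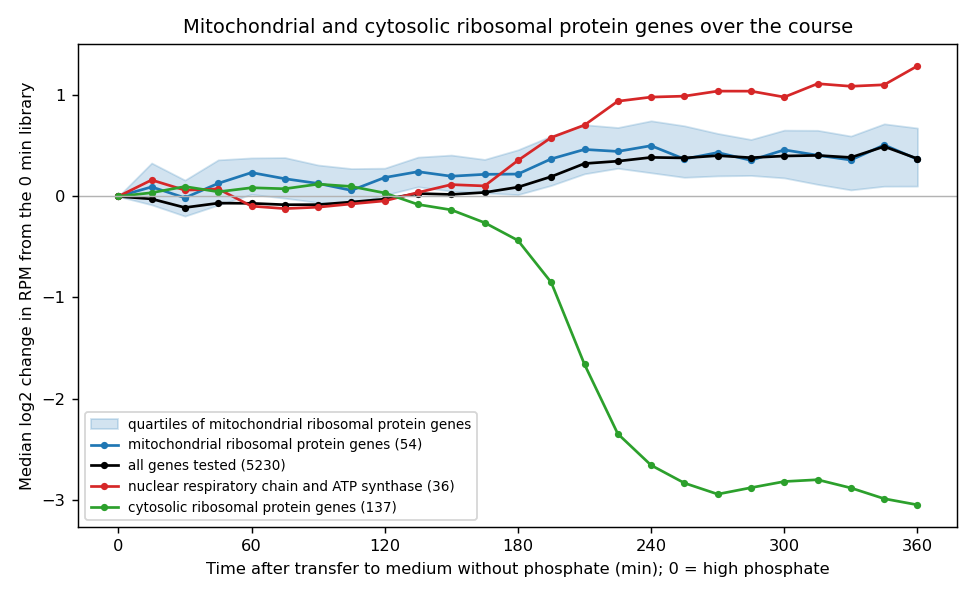
Median log2 change in RPM from the 0 min library (vertical axis) at each time in min after transfer (horizontal axis), for the members with their quartiles as a band, all genes tested, nuclear respiratory chain and ATP synthase genes and cytosolic ribosomal protein genes. The members follow the median of all genes late in the course (0.37 for both at 360 min), with the cytosolic genes at -3.05 and the respiratory genes at 1.29.

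Early against high phosphate, the members' median log2 change was 0.11, beside -0.07 for all genes. The change was positive for 39 of 54 members and for 2122 of 5230 genes. A gene was called when its Benjamini-Hochberg adjusted p from limma, over all genes tested, was under 0.05 and its log2 change at least 1 in size. Of all 5230 genes tested 0.115% were called, 0.0765% higher and 0.0382% lower, and 0.191% passed on the adjusted p alone. Among the members 0 were called and 0 had an adjusted p under 0.05, which at this background says nothing about the members. Unadjusted, RSM19 and MRPL22 had the largest test statistics. RSM19, a protein of the small-subunit head, was 0.44 higher (SE 0.15, unadjusted p = 0.00701, limma adjusted p = 0.399). MRPL22, a protein of the large subunit, was 0.47 higher (SE 0.19, unadjusted p = 0.0197, limma adjusted p = 0.53). The 95% interval of the change lay within -1 and 1 for 52 of 54 members (96.3%), and for 78.7% of all genes.

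In the middle window against high phosphate 0 of 54 members were called, against 10.8% of all genes, 6.33% higher and 4.46% lower. On the adjusted p alone 11 members were higher and 0 lower, and 25.9% of all genes passed in either direction. RSM19 had 120 to 183 RPM (median 130) in the middle window, against 83.8 RPM at 0 min, and every middle library lay above that value. Its log2 change was 0.73 (SE 0.15, limma adjusted p = 8.3e-04). RSM18, another small-subunit protein, had 88.4 to 125 RPM (median 108), against 57.9 RPM at 0 min, a log2 change of 0.82 (SE 0.20, limma adjusted p = 0.00308). The largest middle changes were those of MRPL28 (0.90, SE 0.24) and MRPS8 (0.90, SE 0.30). MRPS8, a primary binder of the small ribosomal RNA in bacteria, was chosen after its values were seen. It had 42.0 to 82.4 RPM (median 68.6) in the middle window, against 36.1 RPM at 0 min. Late it had 32.0 to 67.84 RPM (median 57.15), with 7 libraries above the 0 min value and 1, at 360 min, below it. The 44 members whose interval lay within -1 and 1 were 81.5% of them, against 59.5% of all genes.

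In the late window against high phosphate 2 of 54 members rose (3.7%) and 0 fell. Of all genes 28.0% were called, 21.1% higher and 6.85% lower, so the members' count was well under the background. On the adjusted p alone 19 members were higher and 1 lower, and 51.4% of all genes passed. The members' fitted changes ran from -0.47 (RSM26) to 1.24 (RSM10), with 49 of 54 positive, against 3795 of 5230 over all genes. The members' median was 0.40 and their SD 0.31, beside a median of 0.41 and an SD of 1.04 for all genes. For the large subunit the median was 0.37 and for the small subunit 0.48, with 1 gene of each called. The interval lay within -1 and 1 for 34 members (63%) and for 40.7% of all genes.

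RSM10 encodes the mitochondrial form of small-subunit protein S10 (chromosome IV, 539803 to 540414, R64, plus strand). It had 282 to 368 RPM in the late window, with a median of 319, and 136.7 RPM at 0 min. Every late library stood above the 0 min library, and the late and early ranges did not overlap. The log2 change was 1.24 (SE 0.18, limma adjusted p = 1.5e-06). RSM10 stayed between 128 and 167 RPM to 120 min, was at 164 RPM at 180 min, 214 RPM at 195 min and 323 RPM at 240 min, and held that level to the end.

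MRPL28 encodes a mitochondria-specific protein of the large subunit (chromosome IV, 1386073 to 1386516, R64, plus strand). It had 41.7 to 61.3 RPM late, with a median of 49.4, and 22.9 RPM at 0 min. All late libraries were above the 0 min library. The log2 change was 1.15 (SE 0.24, limma adjusted p = 2.8e-04). Its values rested on few reads, 45 at 0 min and a median of 58. CMI8, which is read from the opposite strand beginning 306 bases upstream, had a log2 change of 1.68 (SE 0.27), and STP1, 299 bases downstream on the same strand, of 0.77 (SE 0.21), and the part of neighbours in the MRPL28 values was not tested. With each library centred on its median of all genes, the changes were 0.81 for RSM10 and 0.72 for MRPL28, under the size needed for a call.

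The members given next were not called and are not a full ranking by size. RSM19 was 0.96 higher (SE 0.15), with 149 to 188 RPM late (median 159) against 83.8 RPM at 0 min. RSM7, chosen after its values were seen and the mitochondrial form of a protein that in bacteria starts the assembly of the small-subunit head, was 0.87 higher (SE 0.18), with 96.8 to 127 RPM late (median 108) against 60.0 RPM at 0 min. For both genes all 8 late libraries lay above the 0 min value, and the size missed the threshold while the limma adjusted p did not (5.8e-06 and 1.4e-04). MRPS16 was 0.76 higher (SE 0.15), with 347 to 434 RPM late (median 373) against 226 RPM at 0 min (limma adjusted p = 7.5e-05).

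**Figure D3:**
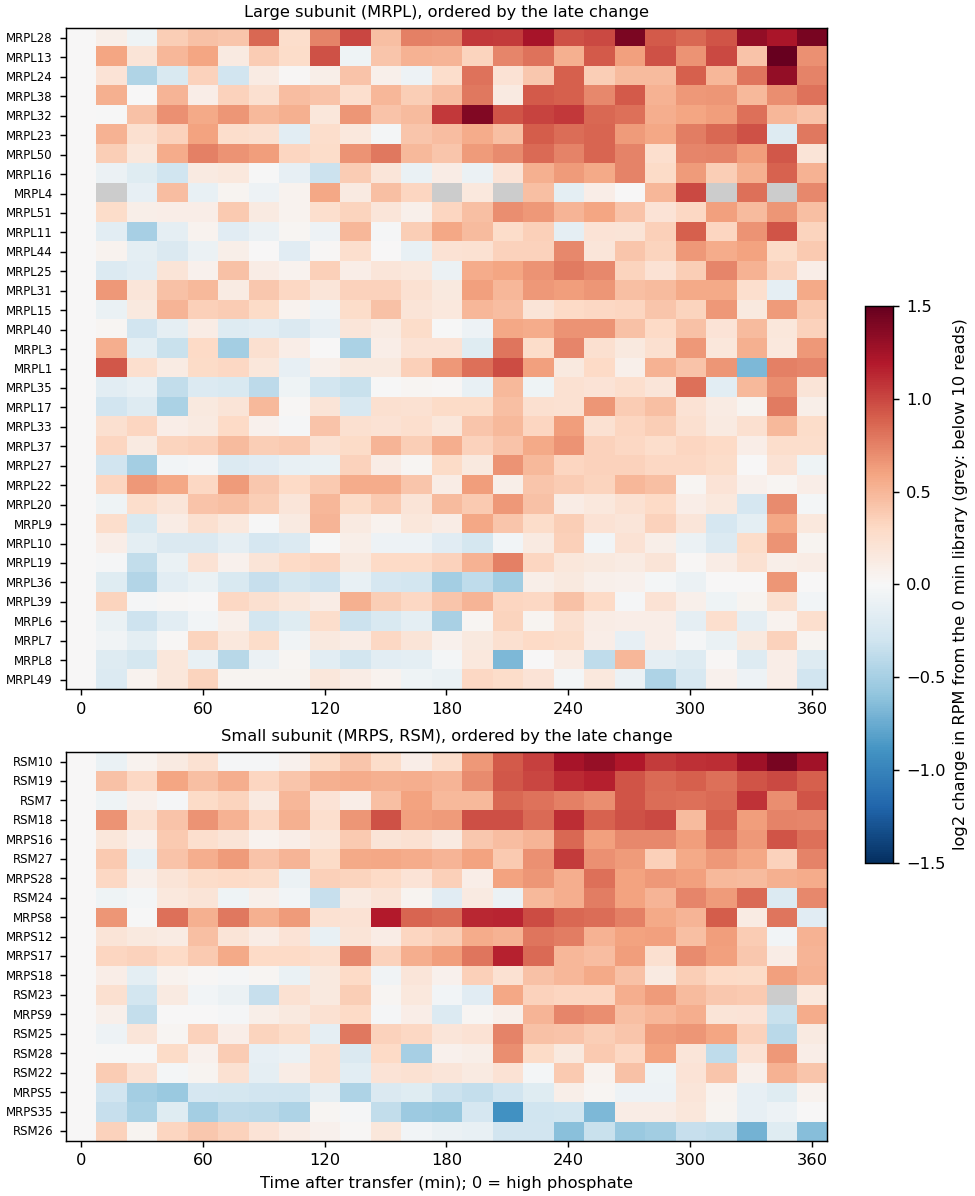
Log2 change in RPM from the 0 min library for each of the 54 genes (rows, by subunit, ordered by late change) at each time in min (columns); red is higher, blue lower, and grey marks values below 10 reads. Most rows turn pale red after about 180 min; RSM10 (late change 1.24) is the top and RSM26 (-0.47) the bottom small-subunit row.

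Late against early, a comparison that does not use the single 0 min library, 1 of 54 members was called (1.85%), against 25.9% of all genes, 21.2% higher and 4.66% lower. The called member was RSM10, with 282 to 368 RPM (median 319) late and 128 to 167 RPM (median 142) early, a log2 change of 1.16 (SE 0.08, limma adjusted p = 1.2e-13). With libraries centred on their medians it was 0.67, under the size for a call. On the adjusted p alone 34 members were higher and 2 lower, against 79.6% of all genes (3473 higher and 743 lower). The members' median was 0.33, beside 0.49 for all genes. When libraries were centred on their medians, the members' median change late against early turned to -0.17, so their direction here depends on the scale. The interval lay within -1 and 1 for 52 members (96.3%) and for 59.7% of all genes. RSM10 and MRPL24 were the other 2.

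For 12 members the lowest late value stood above the highest early value, and for 1, RSM26, the highest late value stood below the lowest early value. These 13 were fewer than the background share of 42.6% of all genes whose windows did not overlap (36.1% higher and 6.51% lower). The mean level was highest in the late window for 34 members, in the middle window for 18 and in the early window for 2. This split was not counted over all genes, so it is not read as a result about the members. Late against early the fitted change was positive for 48 of 54 members and for 4166 of 5298 genes.

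RSM26, chosen after its values were seen, encodes a small-subunit protein related in sequence to manganese superoxide dismutase (chromosome X, 618234 to 619034, R64, plus strand). It had 63.9 to 92.0 RPM late, with a median of 77.1, and 107 to 138 RPM early, with a median of 126. The 0 min library, at 104.7 RPM, lay above all 8 late libraries. Late against early the log2 change was -0.71 (SE 0.08, limma adjusted p = 3.4e-09), and late against high phosphate it was -0.47 (SE 0.18, limma adjusted p = 0.0254). Neither reached the size for a call on the deposited scale. With libraries centred on their medians the late against early change was -1.21, which did. MRPL22 was the other member lower on the adjusted p alone, at -0.26 (SE 0.09, limma adjusted p = 0.00726), with 65.4 to 90.7 RPM late and 78.5 to 101 RPM early, ranges that overlap.

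**Figure D4:**
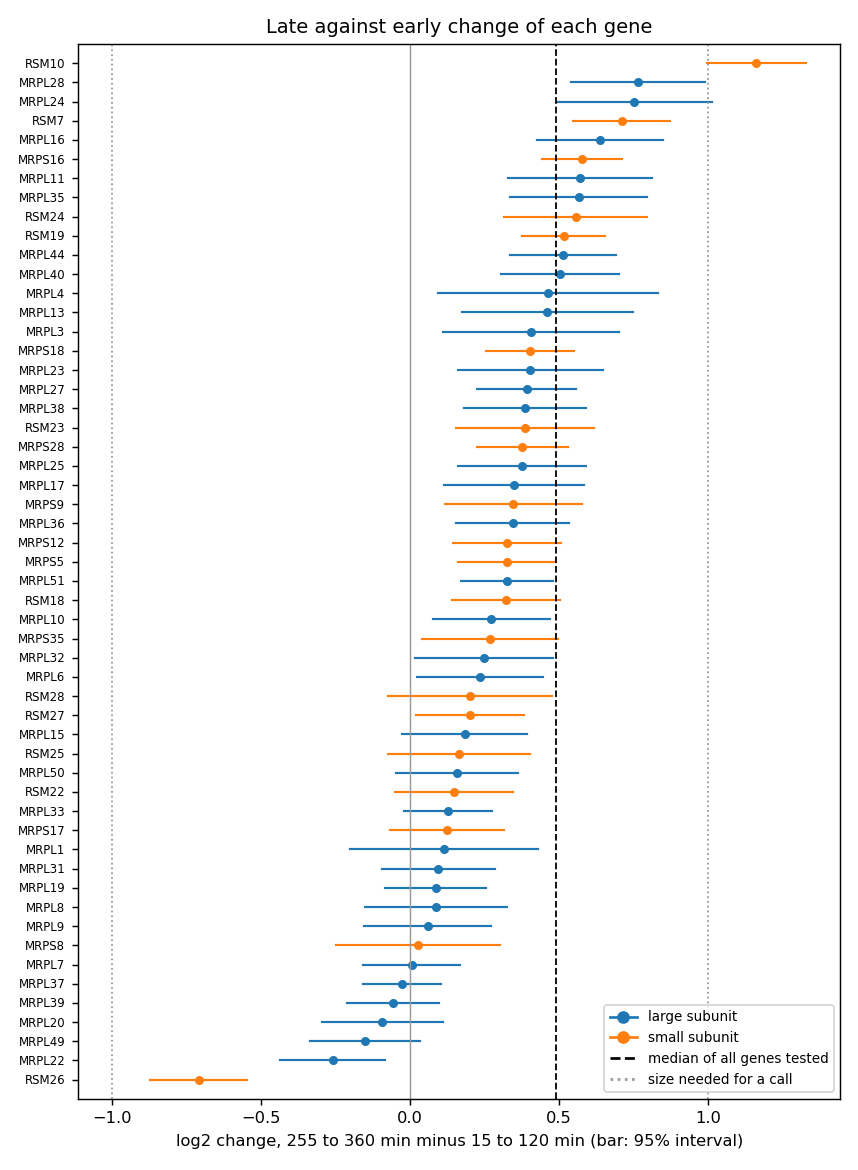
Late against early log2 change of each of the 54 genes with its 95% interval, coloured by subunit; the dashed line is the median of all genes tested (0.49) and the dotted lines mark the size needed for a call. RSM10 at 1.16 lies beyond the upper line, RSM26 at -0.71 is lowest, and most genes lie between 0 and the dashed line, so that the median member (0.33) turns to -0.17 with centred libraries.

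Tested for any change over time without phosphate, 4 members rose and 0 fell (7.41% called), against 42.0% of all genes, 33.7% higher and 8.27% lower. The fitted range was 1.25 for RSM10 (limma adjusted p = 7.8e-12) and 1.24 for MRPL28 (limma adjusted p = 6.5e-06). It was 1.05 for MRPL24 (limma adjusted p = 1.4e-04) and 1.03 for MRPL11 (limma adjusted p = 8.0e-04), both proteins of the large subunit. MRPL24 had 52.6 to 102 RPM late (median 62.6) and 29.7 to 51.5 RPM early (median 42.1), and MRPL11 had 46.1 to 77.5 RPM late (median 51.1) and 28.5 to 41.7 RPM early (median 37.3). Both lost the call without the 30 min library (0.99 and 0.92) or without the 345 min library (0.83 and 0.87), which is the shallowest. MRPL11 was also under the size of 1 without the 135, 240, 300 or 330 min library (0.97 to 0.99) and with a spline of 6 degrees of freedom (0.98), and precision weights took both genes under it (0.99 each). RSM10 and MRPL28 kept the call whichever single library was left out, but MRPL28 lost it with every second time point (0.97) and without the 15 and 30 min libraries together (0.92). On the adjusted p alone 31 members were higher and 5 lower over time, against 81.2% of all genes. With libraries centred on their medians 0 members rose over time and 4 fell (MRPL1, RSM26, MRPS8 and MRPL22), so these counts too depend on the scale. The share of all genes with centred libraries is not given here for this test, so these 4 are not read against a background.

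**Figure D5:**
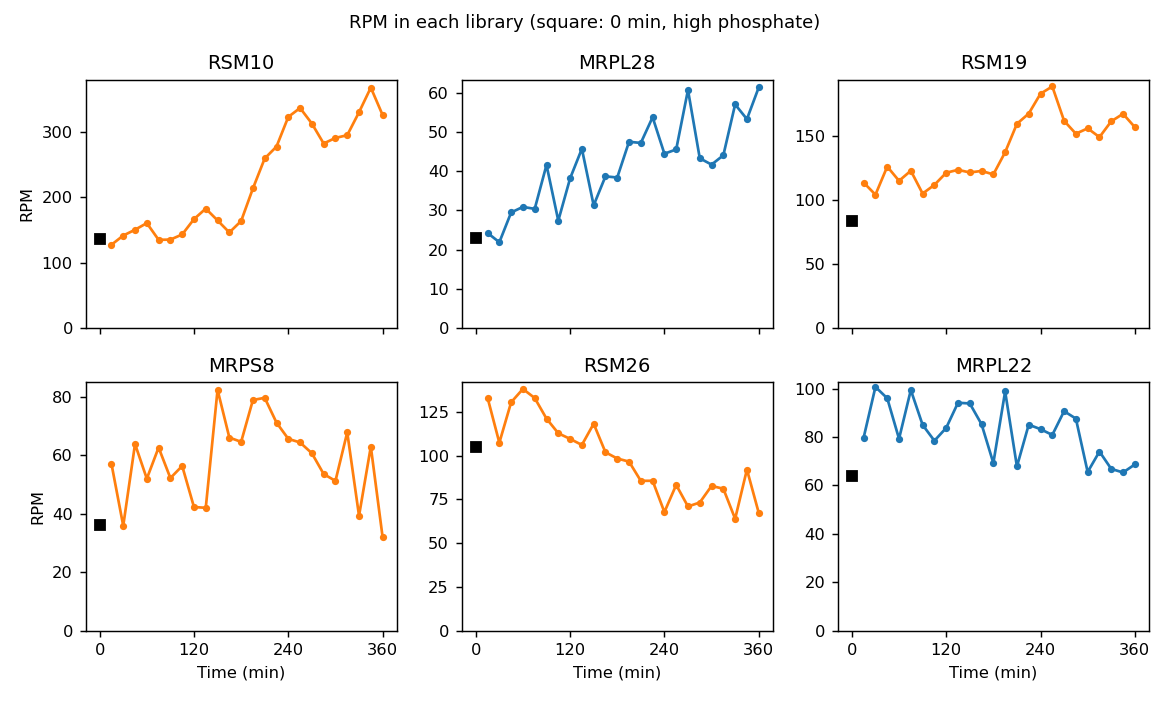
RPM (vertical axis, from 0) of 6 genes in each library against time in min, with the 0 min high-phosphate library as a black square. RSM10 steps up after 180 min to 282 to 368 RPM, MRPL28 climbs along the whole course, MRPS8 is highest in the middle window and RSM26 is at 63.9 to 92.0 RPM late.

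The chromosomal neighbours show how far the members kept apart from adjacent genes of the cytosolic ribosome. MRPL24 lies 332 bases from RPL36A, whose late against high phosphate change was -2.60 (SE 0.21), and MRPL24 itself was at 0.73 (SE 0.28). RSM27 begins 386 bases after RPS0A, which was at -3.28 (SE 0.26), while RSM27 was at 0.60 (SE 0.20). MRPL22 ends 283 bases from the end of RPS3, which was at -3.20 (SE 0.23), and MRPL22 was at 0.21 (SE 0.19). RSM22 ends 243 bases from RPS27A, which was at -2.24 (SE 0.21), with RSM22 at 0.26 (SE 0.22). In the annotation MRPL19 overlaps YNL184C on the same strand and MRPL51 overlaps YPR099C on the opposite strand, with no statement of whether counting used strand, so the values of these members are less certain.

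Other genes of the mitochondrial gene expression system were read late against high phosphate from lists. The counts stand beside 28.0% of all genes called and a median of 0.41 over all genes, and a list near that share is no result about the list. Of 23 other mitoribosome genes, all with the Puf3 motif, 0 were called, with a median of 0.25. The largest test statistics were those of the small-subunit genes MRP10 (0.76, SE 0.20) and MRP51 (0.70, SE 0.19) and the large-subunit gene MRP20 (0.96, SE 0.26). Of 15 mitochondrial aminoacyl-tRNA synthetase and amidotransferase genes, which charge the tRNAs used by this ribosome and also all hold the motif, 4 rose and 0 fell (26.7%, near the share of all genes), with a median of 0.69. MSF1, the phenylalanyl-tRNA synthetase, rose by 1.27 (SE 0.29), and the amidotransferase subunit genes HER2 and PET112 rose by 1.29 (SE 0.32) and 1.40 (SE 0.37). HER2 and PET112 had few reads at 0 min, at 10.2 and 7.62 RPM, where 10 reads are 5.08 RPM. Late against early MSF1, HER2 and PET112 were at 0.85, 0.64 and 0.83, under the size for a call.

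Of 8 translation factor genes 2 rose and 0 fell (25%, against 28.0% of all genes). MEF2, an elongation factor G-like gene, rose by 1.19 (SE 0.27) and GUF1, a GTPase of the LepA family, by 1.69 (SE 0.42). MEF1, the elongation factor G gene, was at 0.56 (SE 0.20). GUF1 was near the floor at 0 min, at 5.59 RPM where 10 reads are 5.08 RPM. Late against early GUF1 was at 0.69, under the size for a call. Of 18 translational activators, which act on single mitochondrial mRNAs, 2 rose and 0 fell (11.1%), with a median of 0.47, beside 0.41 for all genes. MSS51, which acts on COX1 mRNA, was at 0.94 (SE 0.20), AEP1 at 0.71 (SE 0.20) and ATP22 at 0.61 (SE 0.20). Of 13 genes of mitoribosome assembly and RNA turnover 2 rose and 0 fell (15.4%, under the share of all genes), the GTPase gene MTG1 by 1.13 (SE 0.19) and the ribosomal RNA methyltransferase gene MRM1 by 1.49 (SE 0.27), while the helicase gene MSS116 was at -0.35 (SE 0.18).

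Of 29 import genes 0 were called, with a median of 0.08, HSP60 at 0.64 (SE 0.15), SSC1 at 0.59 (SE 0.19) and TOM22 at 0.45 (SE 0.15). Of 7 genes of mitochondrial DNA and transcription 0 were called, with ABF2, which packages mitochondrial DNA, at 0.70 (SE 0.16), RIM1 at 0.23 (SE 0.16) and MIP1, the DNA polymerase, at 0.33 (SE 0.23). Of the 6 genes in the list of Puf3 and HAP genes 2 rose and 0 fell (33.3%, against 28.0% of all genes). The 2 that rose were HAP5, by 1.12 (SE 0.32), and HAP2, by 1.02 (SE 0.38), and HAP3 was at 0.66 (SE 0.21). PUF3 itself was not called, with 19.4 RPM at 0 min and 13.2 to 22.9 RPM late, blank at 345 min.

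The respiratory chain and ATP synthase genes, whose mitochondrially encoded partners this ribosome makes, differed in their counts. Of 36 genes 23 rose and 0 fell (63.9%), with a median of 1.09. SDH4, a subunit of succinate dehydrogenase, rose by 1.97 (SE 0.20), and the ATP synthase genes ATP15 and ATP1 rose by 1.51 (SE 0.14) and 1.15 (SE 0.13). Of 137 cytosolic ribosomal protein genes 0 rose and 136 fell (99.3%), with a median of -2.96, and RPL16B, RPL9A and RPS12 fell by 3.27, 3.52 and 2.90 on the log2 scale. Among the 746 tested genes with the motif TGTANATA that are not members, 22.4% were called, with a median of 0.42, and among the 4311 without it 29.3% were called, with a median of 0.39. No test was made between these lists.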

How the data were processed

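RNA was extracted in 96-well plates and cDNA was sequenced on an Illumina instrument, per the labels' protocols. The submitters' processing notes name Bowtie and build R64, while the counting program, annotation and strand setting are not given in sources used here. Deposited values are log2 RPM: the antilogs of each column sum to 1000000. Taking the lowest listed value of a library as 10 reads made 96.7% of values under 100 reads whole within 0.01, and 94.1% of all values. Lower values are blank and were left missing, with no pseudocount. Of 6701 rows 51 had no name and no value, and 932 genes were blank throughout.

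Genes listed in at least 13 libraries and at least 3 of each window were tested (5298, or 5230 with a 0 min value). The model in limma 3.58.1 (R 4.3.3), with a variance trend, held a term for 0 min and a natural cubic spline (4 degrees of freedom) over the other times, leaving 19 residual degrees of freedom. Contrasts were differences of window means of the fitted values. Change over time was a joint test of the spline terms, with the fitted range as its size, called higher when the maximum followed the minimum. SE is limma's standard error, and RPM ranges are of the libraries of a window. Intervals are 95% and counting errors cover sampling of reads only. The procedure was tested on simulated data. Motifs were searched in the R64 RefSeq genome with Python 3.11.15, and figures drawn with matplotlib 3.10.9.

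The members and the lists were chosen with earlier results of these data known. Genes named are the called members, the 3 highest and 3 lowest by level per length, the 2 largest statistics where none was called, and 3 per other list by statistic late against high phosphate. RSM26, RSM7, MRPS8, PUF3, RSM27 and MRPL22 beyond those uses were chosen after their values were seen. Alternatives were other splines, median-centred libraries, no filter, robust empirical Bayes, array and precision weights, window means, a smaller minimum change, and libraries left out. Blanks set to 5 reads and genes listed in all libraries were added after seeing the data.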

Additional observations from a re-analysis of the deposited data

Results flagged for a closer look

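In each window of 8 libraries, the highest or lowest value of each named member was set against its nearest neighbour. The same was done for the members' median change, that change minus the median of all genes, and the members' summed RPM. Of 60 windows, 6, all of single genes, held a value farther from the rest than the 95% limit of Dixon's ratio, and chance flags about 1 in 20 groups. The limit was that for 8 values, or for fewer where a gene had blanks. MRPS8 had 42.05 RPM at 135 min, below the next middle value of 64.6 RPM, and MRPL11 had 28.48 RPM at 30 min, below the next early value of 35.6 RPM. MRPL1 had 32.86 RPM at 15 min, above the next early value of 21.4 RPM, and 10.81 RPM at 330 min, below the next late value of 18.3 RPM. RSM27 had 282.9 RPM at 240 min, above the next middle value of 220.5 RPM, and MRPL37 had 167.1 RPM at 330 min, below the next late value of 186.4 RPM.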

How the results depend on the processing

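With libraries centred on their medians, members called higher numbered 0 in the late against high phosphate, late against early and change over time comparisons, members called lower numbered 1 late against early and 4 over time, and the members' median change was -0.019 late against high phosphate and -0.17 late against early. RSM18 reversed late against early, at -0.17 against 0.32. All genes called late against high phosphate then split into 566 higher and 616 lower, against 1105 and 358, and late against early into 453 and 480, against 1125 and 247. With a minimum log2 change of 0.58, members called higher numbered 9 in the middle window, 15 late against high phosphate, 5 late against early and 18 over time, and members called lower 1 late against early and 3 over time. Shares of all genes are not given here for this minimum or for the counts over time in this section. Those member counts are therefore not read against a background. Over time, 6 degrees of freedom gave 1 member lower, and leaving out the 15 and 30 min libraries, or weighting by reads, gave 2 higher. Leaving out each library in turn gave 2 to 5 members higher over time (2 without the 30 or 345 min library) and 0 to 1 lower. The called counts were then 2 late against high phosphate and 1 late against early. Members' medians ranged from 0.09 to 0.16 early, 0.31 to 0.36 middle, 0.40 to 0.43 late and 0.29 to 0.34 late against early. All genes called in the middle window were 331 higher and 233 lower, against 104 and 10 with window means. No paired analysis was possible because each time has 1 library and the labels give no replicate numbers. Depth limits the low genes: 10 reads alone carry a counting SD of 0.46 on the log2 scale, and the contrasts with high phosphate rest on a single library at 0 min.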
